A study of Mus musculus with 2 samples.

Results

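Calcium entry and release channels, with the pumps that remove calcium from the cytosol, were described in MS-1 and SVEC4-10, a pair of mouse lines labelled as endothelial. The members were genes of the Trpc, Trpv, Trpm, Cacn, Orai, Stim, Piezo, Itpr, Ryr and Atp2 families named by symbol, with Pkd2. They had 144 probe sets assigned to 1 gene each, which covered 64 genes, out of 34945 probe sets and 18193 genes on the array. The name rule also takes in Trpc4ap, a protein associated with a channel and not a channel itself. A further 8 genes that the rule takes in, Pkd2 and Itpr1 among them, were not analysed here.

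MS-1 comes from pancreatic microvessels and SVEC4-10 from an axillary lymph node, and both lines were immortalised with SV40 genes. Each line was grown to confluence for 3 to 5 days, up to passage 5, with no further treatment, and its RNA was hybridised to 1 Affymetrix array. With 1 array per line there is no replicate check, no test between the lines and no p-value, and a difference belongs to this pair of cultures. MS-1 was grown in 5% and SVEC4-10 in 10% fetal calf serum, so the effects of serum and of line cannot be told apart.

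Endothelial cells do not fire action potentials, and much of their cytosolic calcium comes from the endoplasmic reticulum (ER) and from channels that open when that store empties. Receptors coupled to the G protein Gq activate phospholipase C, which makes inositol trisphosphate (IP3), and IP3 opens the IP3 receptors (Itpr) of the ER. STIM proteins sense the fall of ER calcium and open ORAI pores in the plasma membrane, SERCA pumps (Atp2a) refill the store, and plasma membrane pumps (Atp2b) export calcium. TRP and Piezo channels add entry under chemical or mechanical stimuli, and voltage-gated channels (Cacn) are best known from nerve and muscle.

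The 250 bases before the annotated transcription start are shown for the 3 ORAI genes, which differed in the same direction, and for Trpc1 and Cacna2d1, which were above background on SVEC4-10 only. Sequences are from RefSeq, build GRCm38.p6, and read 5′ to 3′ along the gene. Capitals mark the GC box GGGCGG on either strand, the only motif marked.
Orai1 (chr5:123014824-123015073, plus strand): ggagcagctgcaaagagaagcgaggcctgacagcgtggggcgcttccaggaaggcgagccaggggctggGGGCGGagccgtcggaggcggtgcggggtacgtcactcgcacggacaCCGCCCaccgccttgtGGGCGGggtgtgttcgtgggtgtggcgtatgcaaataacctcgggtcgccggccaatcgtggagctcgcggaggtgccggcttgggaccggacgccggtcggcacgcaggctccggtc
Orai2 (chr5:136170657-136170906, minus strand): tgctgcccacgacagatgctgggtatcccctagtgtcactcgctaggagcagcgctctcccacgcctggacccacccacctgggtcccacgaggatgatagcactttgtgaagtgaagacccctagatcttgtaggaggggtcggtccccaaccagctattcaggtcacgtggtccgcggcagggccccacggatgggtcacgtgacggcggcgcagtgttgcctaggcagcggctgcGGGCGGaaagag
Orai3 (chr7:127769565-127769814, plus strand): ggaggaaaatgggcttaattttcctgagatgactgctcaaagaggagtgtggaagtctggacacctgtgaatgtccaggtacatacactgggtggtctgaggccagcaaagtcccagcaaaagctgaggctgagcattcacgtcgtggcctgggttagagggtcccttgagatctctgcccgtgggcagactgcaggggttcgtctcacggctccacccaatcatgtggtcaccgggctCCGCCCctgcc
Trpc1 (chr9:95750349-95750598, minus strand): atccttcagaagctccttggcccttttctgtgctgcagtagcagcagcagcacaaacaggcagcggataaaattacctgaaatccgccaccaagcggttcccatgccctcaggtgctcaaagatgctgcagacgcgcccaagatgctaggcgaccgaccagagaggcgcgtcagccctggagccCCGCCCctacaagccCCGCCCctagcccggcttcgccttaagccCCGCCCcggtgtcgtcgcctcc
Cacna2d1 (chr5:15934441-15934690, plus strand): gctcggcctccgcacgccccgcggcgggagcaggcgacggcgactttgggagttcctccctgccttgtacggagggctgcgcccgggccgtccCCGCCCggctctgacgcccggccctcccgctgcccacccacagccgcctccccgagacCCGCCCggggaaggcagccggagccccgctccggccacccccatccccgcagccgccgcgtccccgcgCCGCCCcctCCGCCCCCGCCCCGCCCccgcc
All 5 windows held at least 1 GC box, as did 32.7% of 32851 RefSeq windows of this length. Among all windows of member genes, 32 of 68 (47.1%) held it. There were 3 in Orai1, 1 in Orai2, 1 in Orai3, 3 in Trpc1 and 6 in Cacna2d1. The ETS core CCGGAA (12.0% of windows) and the TATA box TATAAA (12.4%) were in none of the 5 on either strand. CCAAT, in 33.8% of windows, occurred once each in Orai1 and Orai3, 61 and 28 bases before the start, and not in the other 3. The windows of Orai1 and Cacna2d1 held 30 and 36 CpG dinucleotides, Orai2 and Trpc1 17 each and Orai3 7, against a median of 6. So few windows cannot show whether these letters separate the ORAI windows from the other pair. Of the 64 member genes, 52 had a window.

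The array labels were checked first against marker genes. Probe sets for odorant, pheromone and taste receptors and hair keratin-associated proteins set the background, at their 95th percentile, which was 16.3 on MS-1 and 17.6 on SVEC4-10. All 11 measured endothelial markers of 12 on the array were higher on MS-1, with a summed signal of 26358 against 111 on SVEC4-10, where only Kdr and Eng exceeded background. Pecam1, Cdh5, Tek, Tie1, Emcn, Esam, Nos3, Erg and Egfl7 did not exceed it there, and Cldn5 did so on neither array. The endothelial label of SVEC4-10 is thus not borne out by these genes. Of 9 mesenchymal markers on the array, 8 were measured, and all 8 were higher on the SVEC4-10 array (summed signal 81.9 and 24386). Of 6 smooth muscle markers 3 were measured and were higher there (summed signal 328 and 10862), while Myh11, Cnn1 and Myocd were above background on neither array. Of 7 striated muscle markers 2 (Myod1 and Ckm) passed background, with highest signals of 19.0 and 21.2. Of 6 neuronal markers 3 passed, all on MS-1 only, and Nefl alone was far above background there (signal 1168). Of 4 mesothelial markers 3 were at least 2-fold higher on SVEC4-10 and 1 on MS-1 (summed signal 158 on MS-1 and 10888 on SVEC4-10). Of 3 measured leukocyte markers 1 was at least 2-fold higher on each array, and Ptprc, the pan-leukocyte marker, was above background on neither. The part of these cell type genes in the channel differences was not tested.

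Of the 64 genes, 40 exceeded background on at least 1 array, while 69.2% of all genes passed that filter. Of the 40, 22 exceeded it on both arrays, 9 on MS-1 only and 9 on SVEC4-10 only. Of all 12583 measured genes, 10123 did so on both, 1352 on MS-1 only and 1108 on SVEC4-10 only. The other 24 stayed below background at every probe set, with highest signals from 1.84 to 15.3. These 24 were the ryanodine receptors Ryr1 and Ryr2, Piezo2, the pumps Atp2b2 and Atp2c2, the TRP channels Trpc5, Trpc6, Trpm3, Trpm5, Trpm6, Trpm8, Trpv1 and Trpv4, the voltage-gated pores Cacna1b, Cacna1d, Cacna1e and Cacna1s, and the auxiliary subunits Cacna2d2, Cacna2d3, Cacnb2, Cacng1, Cacng2, Cacng3 and Cacng6. Of the 40 measured genes, 21 had no signal over 2 times background, with highest signals from 18.0 to 34.7. These 21 included all 9 genes above background on MS-1 only and 6 of those on SVEC4-10 only. Among the 129 probe sets that set the background, 8.53% exceeded it on at least 1 array and 0 exceeded 2 times background. The remaining 19 members carried clear signal on at least 1 array.

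At least 2-fold differences were found for 10 of the 40 measured members, 5 with more signal on SVEC4-10 and 5 with more on MS-1. Over all 12583 measured genes the shares were 15.3% higher on SVEC4-10 and 12.1% higher on MS-1. Over all 40, the members' shares are therefore close to those of all genes, but only 1 of the 21 members near background was 2-fold apart. Of the 19 members over 2 times background, 4 were at least 2-fold higher on SVEC4-10 and 5 on MS-1. The shares over all 10721 genes over 2 times background were 17.6% and 14.2%. The 40 members as a whole did not lie to one side. Their median log2 ratio of SVEC4-10 over MS-1 was -0.07, against 0 for all measured genes. At least 4-fold apart were 2 members on the SVEC4-10 side and 1 on the MS-1 side (5.78% and 4.3% of all measured genes). Scaling the arrays to the spiked poly-A control transcripts ("poly-A scaling" from here on) lowers all log2 ratios by 0.51. That shift is the median over 21 control probe sets, which ranged from 0.28 to 0.89. With the shift of 0.51, the 2-fold split of the members becomes 3 genes higher on SVEC4-10 and 11 on MS-1. The shares over all measured genes become 8.63% and 25.4%. A ratio whose dimmer side was at background is written as "at least". The error of a log2 ratio, taken as the spread between probe sets of a gene over 4406 genes, was 0.49, falling from 0.57 for the dimmest to 0.42 for the brightest tercile. It holds no variation between cultures.

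**Figure D1:**
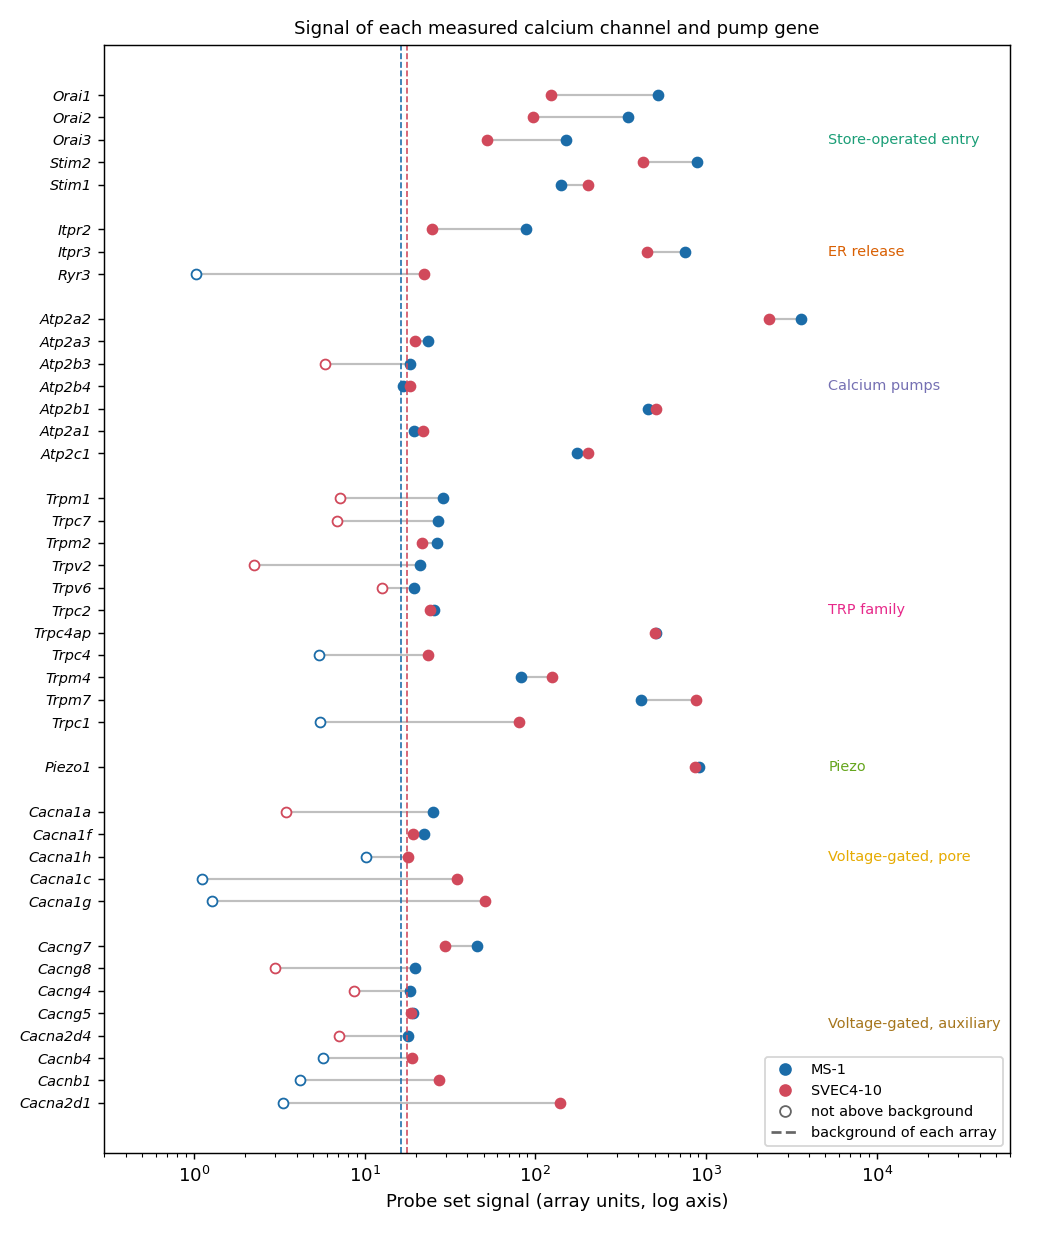
Probe set signal (log axis) of each of the 40 measured genes on the MS-1 array (blue) and the SVEC4-10 array (red), grouped by role, with open circles for signals not above background and dashed lines at the background of each array (16.3 and 17.6). The 3 ORAI genes and Stim2 sit further right on MS-1, and Trpc1, Cacna1g and Cacna2d1 are above background on SVEC4-10 only.

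Store-operated entry was the group in which most genes were apart. All 5 of its genes were above background on both arrays, and 4 of the 5, Orai1, Orai2, Orai3 and Stim2, were at least 2-fold higher on MS-1, as were 12.1% of all measured genes and 14.2% of the 10721 genes over 2 times background. The median log2 ratio of the 5 was -1.54. In RNA of whole cultures, fewer expressing cells and less RNA per cell cannot be told apart.

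Orai1, the pore subunit of the classical store-operated channel, had signals of 519 on MS-1 and 124 on SVEC4-10. It was 4.21-fold higher on MS-1, a log2 ratio of -2.07, and its second probe set (signals 127 and 41.6) gave -1.62. Both probe sets thus placed Orai1 higher on MS-1 by more than 3 times the error of 0.49, which holds no variation between cultures. Orai2, a related pore subunit (signals 349 and 97.0), was 3.59-fold higher on MS-1 (log2 ratio -1.85). Its second probe set, at 86.4 and 55.9, gave -0.63, in the same direction but under 2-fold. Orai3, the third pore subunit, had signals of 151 and 51.9 at its single probe set and was 2.90-fold higher on MS-1 (log2 ratio -1.54). All 3 pore genes thus had lower signal on SVEC4-10 at each of their 5 probe sets.

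The ER calcium sensors that open these pores did not share 1 direction. Stim2, the sensor of small falls in store calcium, had signals of 889 and 427, a 2.08-fold difference towards MS-1 (log2 ratio -1.06). Its second probe set, nearer background at 35.8 and 36.9, gave a ratio of 0.04, so the Stim2 difference rests on 1 probe set. Stim1, the main sensor, had signals of 141 and 205, a log2 ratio of 0.54 towards SVEC4-10 that is close to the error and becomes 0.02 with poly-A scaling. The second probe set of Stim1 (35.3 and 61.3) gave 0.79.

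**Figure D2:**
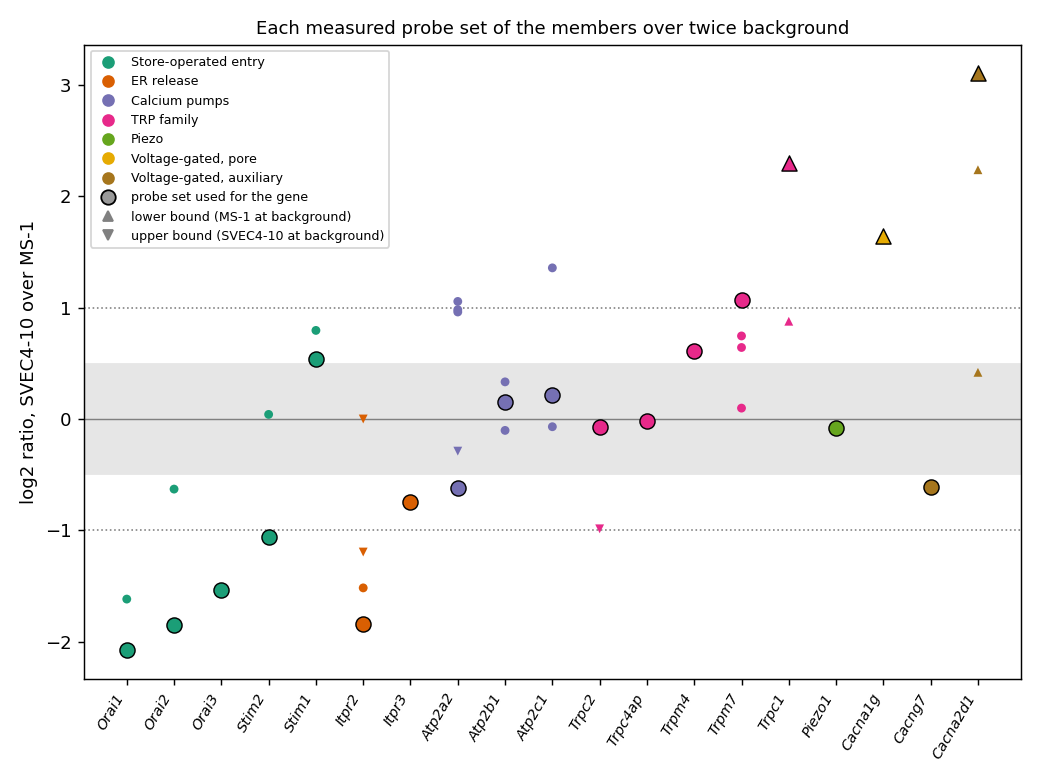
Log2 ratio of SVEC4-10 over MS-1 at each measured probe set of the 19 members over 2 times background; large outlined symbols mark the probe set used for the gene, triangles are bounds, the grey band is the error of 0.49 on either side of 0, and dotted lines mark 2-fold. Both Orai1 probe sets lie below -1.6, whereas those of Atp2a2 lie on both sides of 0.

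Among the release channels of the ER, the IP3 receptors Itpr2 and Itpr3 were measured and the ryanodine receptors hardly were. Itpr1 was not analysed here. Itpr2, an IP3 receptor of high IP3 sensitivity (signals 88.8 and 24.8), was 3.58-fold higher on MS-1 (log2 ratio -1.84). Another of its probe sets, at 76.9 and 26.9, gave -1.52, and 1 more, at 40.3 and not above background on SVEC4-10, gave at least 2.29-fold. The last, at 16.5 on MS-1 and 11.5 on SVEC4-10, barely passed background on MS-1 only and was given a ratio of 0, so 3 of 4 measured probe sets placed Itpr2 at least 2-fold higher on MS-1. Itpr3, the IP3 receptor of lowest affinity, had signals of 750 and 449, a log2 ratio of -0.74 that stays under 2-fold as deposited and is -1.25 with poly-A scaling. Ryr3, a ryanodine receptor, was listed at 22.3 on SVEC4-10 and was not above background on MS-1, which puts it near background.

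Of the 7 measured calcium pumps, 0 were at least 2-fold apart by the probe set used, against 15.3% and 12.1% of all measured genes. In 4 of the 7, near background, raising values to background leaves little room for such a ratio. Atp2b1, the widely expressed plasma membrane pump, had signals of 457 and 508 (log2 ratio 0.15), and its 3 probe sets ranged from -0.10 to 0.33. Its ratio lies within the error. Atp2c1, the manganese and calcium pump of the Golgi, had signals of 175 and 203 (log2 ratio 0.21), but 1 of its 3 measured probe sets, at 66.7 and 171, gave 1.36.

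Atp2a2, which encodes the widely expressed SERCA pump, had probe sets that disagreed. The probe set used had signals of 3584 and 2337 and a log2 ratio of -0.62. Of the others, 1 had signals of 240.2 and 499 (1.06), 1 had 145 and 286 (0.98) and 1 had 104 and 203 (0.96). The fifth, at 21.5 on MS-1 and not above background on SVEC4-10, was at least 1.22-fold higher on MS-1. The first 3 of these thus gave about 2-fold higher signal on SVEC4-10 while the probe set used was higher on MS-1, and no direction is given for the gene. Which transcript parts the probe sets read was not analysed here. Atp2a1, Atp2a3, Atp2b3 and Atp2b4 stayed under 2 times background on both arrays.

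In the TRP family, 11 of 19 genes were measured, 2 were at least 2-fold higher on SVEC4-10 and 0 on MS-1, with 15.3% and 12.1% of all measured genes as the background. Trpc1, a subunit of receptor-operated cation channels, had a signal of 5.46 on MS-1, not above background, and 80.2 on SVEC4-10. It was at least 4.92-fold higher on SVEC4-10, a log2 ratio of at least 2.30, and its second probe set (0.373 and 29.9) was likewise above background on SVEC4-10 only, at least 1.84-fold. Both Trpc1 probe sets therefore showed signal on 1 array only.

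Trpm7, a magnesium- and calcium-permeable channel fused to a kinase (signals 414 and 870), was 2.10-fold higher on SVEC4-10 (log2 ratio 1.07). Its other 3 probe sets gave 0.75, 0.64 and 0.10, all in the same direction and all under 2-fold, and the value used falls to 0.56 with poly-A scaling. The difference of Trpm7 thus sits at the 2-fold limit. Trpm4, a calcium-activated channel that passes sodium and potassium, had signals of 82.3 and 126, a log2 ratio of 0.61, or 0.10 with poly-A scaling.

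Trpc4ap had signals of 511 and 506 (log2 ratio -0.01), nearly equal on both arrays as deposited. Trpc2, which carries pheromone signals in the vomeronasal organ, reached a highest signal of 34.9. That probe set was above background on MS-1 only and gave at least 1.98-fold, and the one used for the gene gave a log2 ratio of -0.08. Trpc4, Trpc7, Trpm1, Trpm2, Trpv2 and Trpv6 stayed under 2 times background, and Trpv4 and Trpc6, known from endothelium and smooth muscle, were not above background on either array. Piezo1, the mechanosensitive channel that senses shear stress in vessels, had signals of 907 and 857. Its log2 ratio of -0.08 is within the error, and becomes -0.59 with poly-A scaling.

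Voltage-gated channel genes were mostly at or near background. Of 24 genes 13 were measured, and 3 of the 13 were at least 2-fold higher on SVEC4-10 and 0 on MS-1, with 15.3% and 12.1% of all measured genes as the background. The 3 were above background on SVEC4-10 only. Cacna2d1, an auxiliary subunit that carries the pore to the membrane, had a signal of 3.33 on MS-1, not above background, and 139.8 on SVEC4-10. It was at least 8.58-fold higher there (log2 ratio at least 3.10). A second probe set (2.50 and 76.8) gave at least 4.71-fold, another (1.30 and 21.8) at least 1.34-fold, and the other 2 were not above background. All 3 measured probe sets of Cacna2d1 were thus above background on SVEC4-10 and not on MS-1.

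Cacna1g, a pore subunit of T-type channels, had signals of 1.27 and 50.9 at its single probe set and was at least 3.13-fold higher on SVEC4-10. With background doubled this becomes a log2 ratio of 0.64. Cacna1c, the L-type pore of heart and smooth muscle, had signals of 1.11 and 34.7, at least 2.13-fold higher on SVEC4-10, but under 2 times background and with its second probe set not above background. The smooth muscle markers Acta2 and Tagln were higher on the same array, with Acta2 at 48.6 and 6446 and Tagln at 1.38, below background, and 3801. Myh11, Cnn1 and Myocd were above background on neither array. All 8 measured mesenchymal markers and 3 of 4 mesothelial markers were higher on SVEC4-10 too. The part of any of these cell type genes in these differences was not tested.

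The other measured pores, Cacna1a, Cacna1f and Cacna1h, had highest signals between 18.0 and 25.1. Of the auxiliary subunits, Cacng7 had signals of 45.6 and 29.8 (log2 ratio -0.61). Cacnb1, Cacnb4, Cacna2d4, Cacng4, Cacng5 and Cacng8 stayed under 2 times background. Of the beta subunit genes analysed, whose products assemble with L-type pores, none was above 27.4 on either array.

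**Figure D3:**
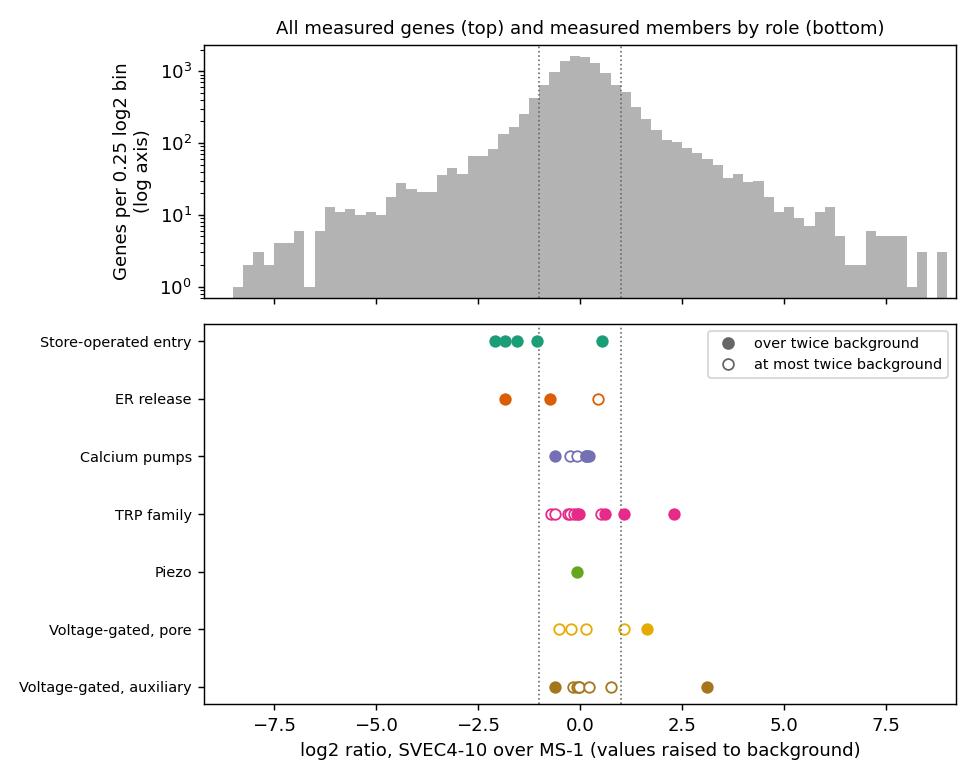
Histogram of the log2 ratio of SVEC4-10 over MS-1 for all 12583 measured genes (top, log axis) and the 40 measured members by role (bottom), with open circles for genes at or under 2 times background and dotted lines at 2-fold. Store-operated entry has 4 of 5 genes left of -1, and the points right of 1 are TRP and voltage-gated genes.

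Other genes of calcium signalling were followed in 8 lists of 150 genes, of which 138 were on the array and 102 were measured. Of the 102, 12 were at least 2-fold higher on SVEC4-10, 16 on MS-1 and 74 on neither, with a median log2 ratio of -0.04, against shares of 15.3% and 12.1% over all genes. With poly-A scaling the split becomes 8 on SVEC4-10 and 32 on MS-1, and the shares over all genes become 8.63% and 25.4%. As deposited, no list had more than 4 genes at least 2-fold apart on one side, and with poly-A scaling the most was 7, on the MS-1 side.

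Of 11 measured Gq-coupled receptors, 2 were at least 2-fold higher on SVEC4-10 and 2 on MS-1. F2rl3, a thrombin receptor, had a signal of 186 on MS-1 and was at least 10.5-fold higher there, and Chrm3, a muscarinic receptor, at least 2.12-fold (signal 37.3). Lpar1, a lysophosphatidic acid receptor, had a signal of 161 on SVEC4-10 and was at least 9.89-fold higher there, and Cysltr1, a leukotriene receptor, at least 3.96-fold (signal 64.5). Each of these 4 receptors was above background on 1 array only.

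Of 12 measured Gq proteins and phospholipases C, 2 were at least 2-fold higher on each array. Plce1, a phospholipase C activated by Ras-family GTPases, had a signal of 555 on SVEC4-10 and was at least 34.1-fold higher there. Plcd3 had signals of 78.3 and 170 (2.17-fold) at its single measured probe set, which is of a less specific class. With that class left out, or with poly-A scaling, Plce1 was the only gene of this list at least 2-fold higher on SVEC4-10. Plcg2, which acts downstream of tyrosine kinases (signals 371 and 83.8), was 4.43-fold higher on MS-1. Gnaq, the Gq alpha subunit, had signals of 441 and 183 (2.40-fold higher on MS-1), and its 7 measured probe sets ranged from -1.61 to -0.63.

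Of 13 measured genes of IP3 metabolism and IP3 receptor partners, 2 were at least 2-fold higher on each array. Itpripl2, a relative of an IP3 receptor-interacting protein (signals 3651 and 346), was 10.6-fold higher on MS-1. Mrvi1, the IP3 receptor partner of cGMP kinase, had a signal of 119 on MS-1 and was at least 6.77-fold higher there. Its other measured probe set gave a log2 ratio of -1.39. With less specific probe set classes left out, Itpripl2 was the only gene of this list at least 2-fold higher on MS-1. Ahcyl1, which binds IP3 receptors and limits their opening (signals 701 and 2374), was 3.39-fold higher on SVEC4-10, and Homer1, a scaffold, was 2.75-fold higher there with probe sets from -0.04 to 1.46. Itpripl2 and Mrvi1 were thus on the side of Itpr2, and Ahcyl1 and Homer1 on the other.

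Of 19 measured ER store proteins and regulators, 4 were at least 2-fold higher on SVEC4-10 and 2 on MS-1. Rcn3, an ER calcium-binding protein (signals 29.5 and 1084), was 36.7-fold higher on SVEC4-10. Jph1, which holds ER and plasma membrane together in muscle, had a signal of 73.9 there (at least 4.54-fold), while its second probe set gave 0.42. Fkbp1a and Fkbp1b, small binding proteins of ryanodine receptors, went opposite ways, 3.46-fold higher on MS-1 (signals 7672 and 2221) and 2.86-fold higher on SVEC4-10 (34.2 and 97.9).

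Of 10 measured genes of mitochondrial calcium uptake and exchange, 1 was at least 2-fold apart. It was the sodium-calcium exchanger Slc8b1 (158 and 51.5, 3.06-fold higher on MS-1), and no other gene was by the probe set used. The next in size, Micu3, Vdac1 and Letm1, gave log2 ratios of -0.78, -0.73 and -0.69. Other probe sets of Vdac1 and Letm1 reached 0 and 0.41. Mcu gave 0.48 at the probe set used, but its other measured probe set gave -1.09, over 2-fold in the opposite direction. Of 13 measured other channels and exchangers, 1 was at least 2-fold higher on SVEC4-10 and 2 on MS-1. Slc24a3, a potassium-dependent sodium-calcium exchanger, had signals of 43.4 and 218 (5.01-fold higher on SVEC4-10). P2rx5, an ATP-gated channel, had a signal of 108 on MS-1 (at least 6.10-fold), and Pkd1, polycystin 1, had signals of 286 and 141 (2.03-fold). The ATP-gated channel P2rx3 was near background, at 33.8 on MS-1 and not above background on SVEC4-10 (at least 1.92-fold).

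Of 3 measured regulators of voltage-gated channels, 1 was at least 2-fold apart. It was Gem, a small GTPase that inhibits these channels, with a signal of 59.5 on MS-1 and a difference of at least 3.38-fold. The Gem difference is under 2-fold with background doubled, and its single measured probe set is of a less specific class, so it has no value when those are left out. Of the other 2, Cbarp gave log2 ratios of 0.36 and 1.10 at its probe sets, and Stac2 was above background on MS-1 only, at 18.7 (at least 1.06-fold). Gem was higher on the array where Cacna1c, Cacna1g and Cacna2d1 were not above background, and Cbarp was lower there. A relation between the regulators and these channel genes was not tested.

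Of 21 measured genes of calmodulin, calcineurin and NFAT signalling, 1 was at least 2-fold higher on SVEC4-10 and 4 on MS-1. Camk2d, a calmodulin-dependent kinase, had signals of 544 and 98.4 (5.53-fold higher on MS-1), with probe sets from -2.47 to -0.18. Rcan1, a calcineurin inhibitor whose gene is itself induced by calcineurin (signals 1027 and 261), was 3.94-fold higher on MS-1, and its second probe set gave -2.12. Ppp3cc, a calcineurin catalytic subunit, was 2.53-fold higher on MS-1 (64.4 and 25.4), but its second probe set gave -0.27. Camk4, with a signal of 38.8 on SVEC4-10, was at least 2.38-fold higher there, but its probe sets ranged from -0.59 to 1.25.

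**Figure D4:**
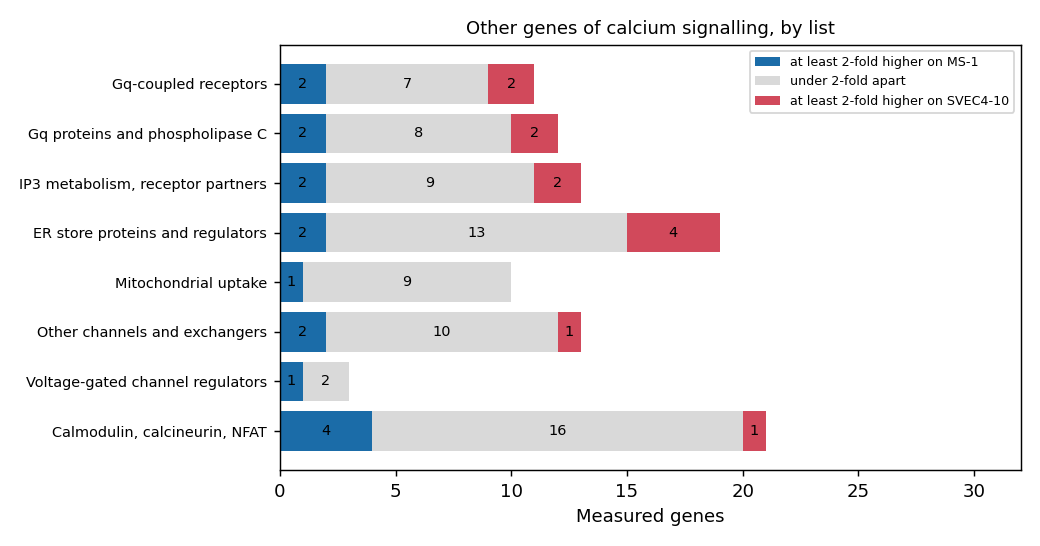
Number of measured genes in each of the 8 lists that were at least 2-fold higher on MS-1 (blue), under 2-fold apart (grey) or at least 2-fold higher on SVEC4-10 (red). In each list most genes were under 2-fold apart. As deposited, 16 genes in all were at least 2-fold higher on MS-1 and 12 on SVEC4-10, or 32 and 8 with poly-A scaling.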

How the data were processed

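The study measured total RNA of 1 culture each of MS-1 and SVEC4-10. Per the labels' protocols, 6 µg of Trizol-extracted RNA was turned into biotin-labelled cRNA and hybridised to Affymetrix arrays. The authors deposited 1 linear intensity per probe set and array (45101 probe sets). How probes were summarised is not given in the sources used here. On both arrays the 2%-trimmed mean was 150.001, so the values were used as scaled by the authors, which assumes equal total signal in both lines.

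Names came from the platform annotation, with symbols refreshed through RefSeq gene identifiers (GRCm38.p6). Those with several genes (932), controls (64) and unnamed ones (9160) were left out, among them 2 that name Trpc2 with another gene. Values were raised to background before the log2 ratio was taken. A probe set above background on 1 array only, but under the background level of the other, gave a ratio of 0. For each gene the measured probe set of highest mean log2 signal was used, and a cross-hybridising one only where no other was measured. Differences were counted at 2-fold and 4-fold. The number of arrays limits the precision. Every measured member could be named, and, from each list, up to 4 genes by absolute ratio. Acta2, Tagln, Nefl, Myod1, Ckm, Ptprc, Mcu and Ppp3ca were named after their values were seen. Members, lists and rules were chosen with earlier results of these data known. Steps were tested on simulated data. Python 3.11.15, pandas 2.3.3, NumPy 2.4.6 and SciPy 1.17.1 were used. The closing section gives the alternatives.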

Additional observations from a re-analysis of the deposited data

How the results depend on the processing

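Of the 10 members at least 2-fold apart, Orai1 and Orai3 stayed so, in the same direction, in each of the 9 alternatives that bear on single genes. The members at least 2-fold higher on SVEC4-10 and on MS-1 numbered 5 and 5. With poly-A scaling they numbered 3 and 11, against 8.63% and 25.4% of all measured genes. With no background floor they were 8 and 11, against 18.2% and 16.3%. With the probe set of smallest ratio they were 2 and 2, against 11.1% and 8.59%. At 4-fold 2 and 1 remained, against 5.78% and 4.3%. With background doubled 19 members were measured, and 3 were higher on SVEC4-10 and 5 on MS-1, against 15.1% and 12.0%. The median log2 ratio of -0.07 became -0.59 with poly-A scaling and ranged from -0.14 to -0.01 in the other alternatives. The causes were not tested beyond the shift of 0.51 that the poly-A scaling puts on all genes.

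With the probe set of smallest ratio, Stim2 turned to 0.041, Itpr2 to 0, and Orai2, Trpc1, Trpm7 and Cacna2d1 to -0.63, 0.88, 0.10 and 0.42. With the mean over probe sets Stim2 gave -0.51. With poly-A scaling Trpm7 and Cacna1c fell under 2-fold, to 0.56 and 0.58. Cacna1c had no value with background doubled or without the less specific probe set classes. The 28 genes of the pathway lists at least 2-fold apart numbered 21 to 40 in the alternatives, with 8 higher on SVEC4-10 and 32 on MS-1 under poly-A scaling. Ratios of dim genes are limited by background. No paired analysis was possible because each line has 1 array.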
